A study of Mus musculus with 27 samples.

Results

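The 28 genes described here carry out cholesterol synthesis or regulate sterols, and they were taken by name from the pathway: 8 act in the mevalonate and isoprenoid steps, 11 in squalene formation and the sterol steps, 4 in sterol sensing, and 5 in sterol transport and storage. They are 28 of 53801 genes in the table of read counts, and all 28 were among the 18363 genes that passed the filter on low counts. Their symbols were mapped to Ensembl identifiers with GENCODE M21 (mm10). Nsdhl (ENSMUSG00000031349, chrX:72918557-72958514, plus strand) and Ebp (ENSMUSG00000031168, chrX:8185329-8193512, minus strand) lie on the X chromosome and the other 26 are autosomal.

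RNA came from TX1072, a female mouse embryonic stem cell line from a BL/6J x CAST-EiJ cross. Adding doxycycline to TX1072 turns on Xist, the long non-coding RNA that spreads over the X chromosome encoding it and shuts off its genes. All cells, controls included, carried SPEN fused to an auxin-inducible degron. SPEN binds Xist RNA and is needed for silencing, and its SPOC domain recruits repressors. One line expressed BglG-GFP (the GFP line) and the other BglG-GFP-SPOC (the SPOC line). BglG is an RNA-binding protein of bacterial origin that tethers what is fused to it to Xist. The 3 treatments of each line were none (untreated), 24 h of doxycycline at 1 ug/mL (Dox), and 24 h of doxycycline plus auxin after 12 h of auxin (Dox+Auxin), in serum medium with 2i inhibitors and LIF. The GFP line had 4 libraries per group and the SPOC line 5, whereas the design text states 4 biological replicates. No group had auxin alone or doxycycline without inducible Xist, each construct was in 1 line, and line and construct cannot be told apart. The p-values measure the spread between these libraries. In bulk RNA, fewer cells with a transcript and less RNA per cell cannot be told apart.

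Cholesterol is built from acetyl-CoA through mevalonate and isoprenoid diphosphates to squalene, which is closed into lanosterol and trimmed to cholesterol. Cells hold its level by sensing sterols in the endoplasmic reticulum membrane. SCAP escorts SREBP transcription factors (made from Srebf1 and Srebf2) to the Golgi for release when sterols are low, and INSIG proteins retain the complex when sterols are high. Released SREBP raises most synthesis genes and Insig1 itself through sterol regulatory elements, usually with NF-Y and Sp1 sites near by. Nsdhl and Ebp are classical X-linked sterol genes, and loss of either causes X-linked skin and skeletal disease in mouse mutants.

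The promoters are shown because many of these genes moved together, and because they let a reader see the regulatory letters of the best known SREBP targets beside those of the X-linked enzymes. RefSeq windows (GRCm38.p6) from 250 bases before to 50 from the start on were available for 23 of the 28 genes, in 29 windows. Each is printed 5′ to 3′ on the gene's strand, and capitals mark the sterol regulatory element TCACNCCAC, its shorter form CACCCCAC and the NF-Y box CCAAT on either strand. Hmgcs1 is at chr13:119690101-119690400, Insig1 at chr5:28071162-28071461 and Idi1 at chr13:8885356-8885655, all on the plus strand. Nsdhl is at chrX:72918271-72918570 on the plus strand and Ebp at chrX:8193463-8193762 on the minus strand.
Hmgcs1: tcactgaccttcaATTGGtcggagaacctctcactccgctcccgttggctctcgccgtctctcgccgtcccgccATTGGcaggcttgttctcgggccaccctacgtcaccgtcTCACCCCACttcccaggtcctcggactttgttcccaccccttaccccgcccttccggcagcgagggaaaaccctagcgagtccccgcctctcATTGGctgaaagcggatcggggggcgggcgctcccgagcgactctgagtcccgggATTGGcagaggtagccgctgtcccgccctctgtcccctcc
Insig1: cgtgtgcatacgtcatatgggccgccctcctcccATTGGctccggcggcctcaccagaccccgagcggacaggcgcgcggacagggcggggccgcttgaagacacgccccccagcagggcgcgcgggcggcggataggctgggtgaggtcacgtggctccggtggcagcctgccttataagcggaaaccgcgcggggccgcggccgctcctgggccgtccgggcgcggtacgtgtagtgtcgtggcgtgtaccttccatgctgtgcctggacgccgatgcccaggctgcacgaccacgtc
Idi1: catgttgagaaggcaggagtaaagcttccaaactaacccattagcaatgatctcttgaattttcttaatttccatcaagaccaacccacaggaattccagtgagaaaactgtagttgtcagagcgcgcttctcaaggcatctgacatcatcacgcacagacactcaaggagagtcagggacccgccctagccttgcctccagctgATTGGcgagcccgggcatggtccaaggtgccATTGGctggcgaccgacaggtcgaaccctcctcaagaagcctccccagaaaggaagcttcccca
Nsdhl: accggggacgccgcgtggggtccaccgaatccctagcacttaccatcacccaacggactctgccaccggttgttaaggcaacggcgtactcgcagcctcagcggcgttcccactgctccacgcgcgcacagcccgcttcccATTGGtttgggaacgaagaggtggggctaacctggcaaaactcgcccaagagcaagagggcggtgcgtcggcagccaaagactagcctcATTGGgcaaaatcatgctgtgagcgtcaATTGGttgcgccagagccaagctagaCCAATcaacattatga
Ebp: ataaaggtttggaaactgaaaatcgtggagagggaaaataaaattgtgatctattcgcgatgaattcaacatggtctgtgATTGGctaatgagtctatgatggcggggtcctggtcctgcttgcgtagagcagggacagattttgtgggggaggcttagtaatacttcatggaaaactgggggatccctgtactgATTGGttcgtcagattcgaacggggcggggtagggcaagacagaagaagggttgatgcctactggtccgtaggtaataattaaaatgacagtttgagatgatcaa
TCACNCCAC was found in 1 of the 29 windows (3.4%), that of Hmgcs1 at position -137 from the start, against 1.24% of all 32851 windows in the table. CACCCCAC was in 2 windows (6.9%), Hmgcs1 and Acat2, against 2.87%, and its match in Hmgcs1 overlaps the longer motif. The NF-Y box was in 21 windows (72.4%) against 37.41%, and the Sp1 box GGGCGG in 24 (82.8%) against 35.66%. The Nsdhl window held 4 NF-Y boxes and that of Ebp 2, as the capitals show. These matches are letters in a fixed window, and absence of a match says only that the letters are not there.

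Total counts ranged from 28936459 to 45489094 per library. Levels are given as CPM, library-size-scaled counts with TMM normalization. Xist was at 5.43 to 7.82 CPM in untreated GFP libraries, 747 to 918 with Dox and 382 to 630 with Dox+Auxin. SPOC libraries had 1.03 to 1.69 CPM in 4 untreated libraries but 178 in replicate 2, then 308 to 458 with Dox and 290 to 415 with Dox+Auxin. The library labelled SPOC untreated replicate 2 thus stood apart. For SPOC changes against untreated, genes whose call changed without it are named, and Nsdhl and Ebp are given both ways. The other changes are given only with it. Medians, and shares of X-linked genes below a gene, are given only with it. Spen RNA was at 158 to 187 CPM in untreated GFP libraries and 634 to 1164 with Dox+Auxin, and at 326 to 358 and 973 to 1242 in the SPOC line; depletion acts on the protein, so this RNA does not check it, and reads from Spen and from a SPOC construct cannot be told apart. Naive embryonic stem cell markers summed to 5629 to 6722 CPM over all libraries with none of 9 at 0. Fibroblast feeder markers summed to 23.4 to 36.8 CPM, with Fap at 0 in every group.

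Among untreated GFP libraries Insig1 had the highest level per length of the 28 genes. The deposited values per length are counts divided by a library size factor and by kilobases, so they order genes but are not relative to sequencing depth as RPKM usually is. On this scale Insig1, the protein that retains SCAP, was at 2818 ± 130 (SD, n = 4), above Hmgcs1 (HMG-CoA synthase, 2011 ± 213) and Acat2 (acetoacetyl-CoA thiolase, 1901 ± 48.9). Nsdhl followed at 1817 ± 44.0 and Ebp stood seventh at 1734 ± 59.4. From Hmgcs1 to Acat2, and from Nsdhl down to Sqle (1480 ± 23.0), the ranges of neighbours overlapped, so these genes were not ordered beyond their spread. The lowest were Tm7sf2 (a sterol reductase, 159 ± 16.6) and Hsd17b7 (a keto-steroid reductase, 152 ± 12.6). In untreated SPOC libraries Insig1 was again highest (2822 ± 187, n = 5) and Tm7sf2 had the lowest mean (143 ± 12.5). In both lines the lowest genes overlapped their neighbours from Soat1 down, so their order was not beyond the spread. Some values are uncertain because reads can be shared: 39.1% of 50-base words of Acat2 also occur in Acat3, 26.2% of those of Fdps and 17.7% of those of Idi1 occur in other genes. Fdft1 exons overlap Ctsb on the opposite strand by 774 bases and Npc1 exons overlap Rmc1 by 511, and no source used here gives the strand setting.

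**Figure D1:**
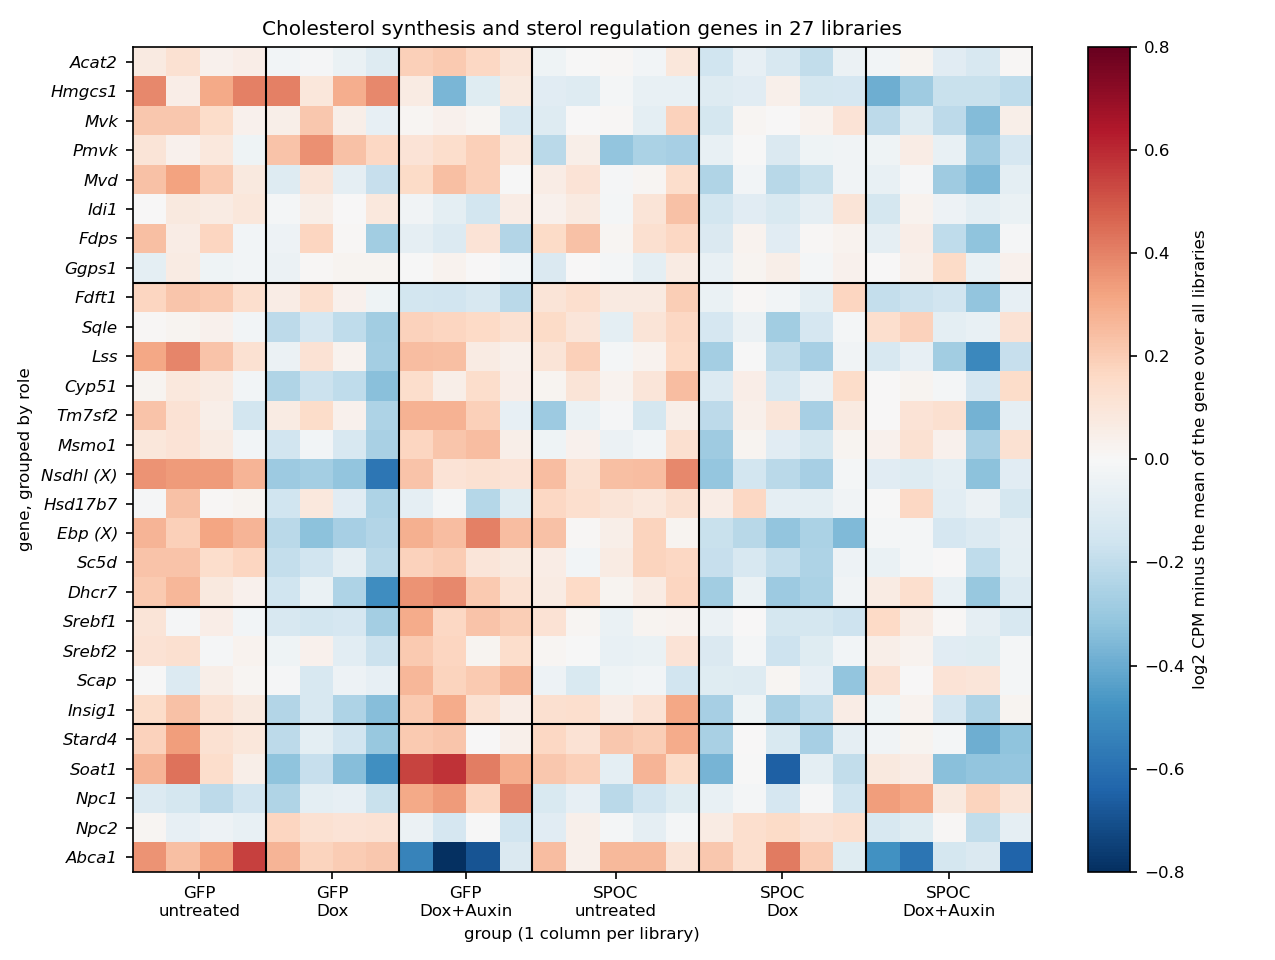
Heat map of log2 CPM of the 28 genes (rows, by role) in 27 libraries (columns, by group), each gene minus its mean over all libraries; X marks X-linked genes. Most rows from Sqle to Dhcr7 and Insig1, Stard4 and Soat1 are lower in the Dox columns of both lines, while Abca1 is lowest in the Dox+Auxin columns.

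Much of the pathway was lower after 24 h of doxycycline in the GFP line. Of the 28 genes, 16 were lower than in untreated cells at an adjusted p under 0.05, against 10.8% of all genes tested. In the other direction 2 were higher, against 10.1%. The median log2 fold change was -0.16 over the 28 genes and -0.00 over all genes tested. The squalene and sterol steps held most of the falls, with 9 of 11 genes lower and a median of -0.27. Of the mevalonate and isoprenoid steps 2 of 8 were lower and 1 higher (median -0.06), of the sensing genes 3 of 4 were lower, and of the transport and storage genes 2 of 5 were lower and 1 higher.

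The mevalonate and isoprenoid genes were the most even of the groups with Dox. Hmgcs1, the enzyme that makes HMG-CoA and the gene with the sterol regulatory element printed above, was at 284, 226, 269 and 288 CPM untreated and at 288, 232, 267 and 284 with Dox. These ranges overlapped almost wholly, with a log2 fold change of 0.01 ± 0.08 (SE; adjusted p = 0.97). Mvd, which makes isopentenyl diphosphate, fell by 0.27 on the log2 scale (adjusted p = 0.0068). Pmvk, a kinase in the same branch, rose from 51.0, 48.6, 50.3 and 46.2 CPM to 55.5, 61.2, 55.8 and 53.1, a log2 fold change of 0.20 ± 0.06 (adjusted p = 0.017). All Dox values of Pmvk lay above all untreated ones, but without Dox replicate 2 its value was 0.16 (adjusted p = 0.087), and it was also lost without untreated replicate 4. Acat2 was lower (-0.12), while Mvk, Idi1, Fdps and Ggps1 did not pass, with values from -0.14 for Fdps to 0.02 for Ggps1.

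Most genes of the squalene and sterol steps were lower with Dox. Nsdhl, part of the complex that removes the methyl groups of lanosterol, went from 153, 151, 151 and 144 CPM untreated to 97.7, 98.9, 96.1 and 79.9 with Dox. This was the largest fall among the 28 genes, with a log2 fold change of -0.68 ± 0.06 (adjusted p = 4.7e-09). Ebp, the isomerase that moves the ring double bond, went from 116, 110, 120 and 116 CPM to 82.9, 76.8, 80.1 and 81.7 (log2 fold change -0.53 ± 0.05, adjusted p = 4.5e-10). Neither gene's groups overlapped, and Dox replicate 4 was the lowest for Nsdhl but not for Ebp. Sqle, squalene epoxidase and a flux-controlling step, went from 237, 239, 241 and 232 CPM to 203, 214, 204 and 194 (-0.22 ± 0.05, adjusted p = 0.0041). Here too every Dox library was below every untreated one. Dhcr7 (-0.38) and Sc5d (-0.35), which act at the end of the pathway, and Cyp51 (-0.27), which removes the first methyl group, also fell without overlap. Lss (-0.30), Msmo1 (-0.20) and Fdft1 (-0.13) were lower, and Hsd17b7 (-0.16, adjusted p = 0.095) and Tm7sf2 (-0.06, adjusted p = 0.77) did not pass.

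Among the sensing genes Insig1 fell most, from 252, 268, 248 and 240 CPM to 193, 208, 192 and 180 (log2 fold change -0.38 ± 0.07, adjusted p = 3.0e-04). Srebf1 fell from 87.3, 81.0, 84.5 and 80.2 CPM to 74.4, 73.6, 74.2 and 67.5 (-0.20 ± 0.05, adjusted p = 0.0035). Both genes separated the groups completely. Srebf2, the SREBP gene tied most closely to cholesterol synthesis, was at 378, 380, 346 and 355 CPM untreated and 340, 357, 328 and 309 with Dox. These ranges overlapped, and its log2 fold change of -0.13 ± 0.05 was at an adjusted p of 0.049. Scap did not pass (-0.05, adjusted p = 0.56). The transport and storage genes split: Soat1, which esterifies cholesterol for storage, went from 53.3, 59.6, 48.5 and 45.6 CPM to 35.3, 38.7, 34.8 and 31.3 (-0.56 ± 0.12, adjusted p = 0.002). Npc2, the soluble lysosomal cholesterol carrier, instead rose from 284, 269, 274 and 270 CPM to 317, 306, 304 and 305 (0.17 ± 0.04, adjusted p = 0.0011). Neither overlapped between groups. Stard4, a cytosolic sterol carrier, fell by 0.37 on the log2 scale, and Npc1 (0.01) and Abca1 (-0.15) did not pass.

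Dox replicate 4 was the lowest GFP Dox library for many of these genes, with an autosomal median of -0.30 against -0.10 to -0.15 in the other 3, on the log2 scale centred on untreated libraries. Without it 11 genes were lower, as without untreated replicate 2, and Acat2 (-0.10, adjusted p = 0.10), Fdft1 (-0.11, 0.15), Lss (-0.23, 0.079), Msmo1 (-0.16, 0.16) and Srebf2 (-0.09, 0.20) did not pass. These 5 calls were also lost without other libraries, with 2 libraries in all for Lss and up to 14 for Srebf2.

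**Figure D2:**
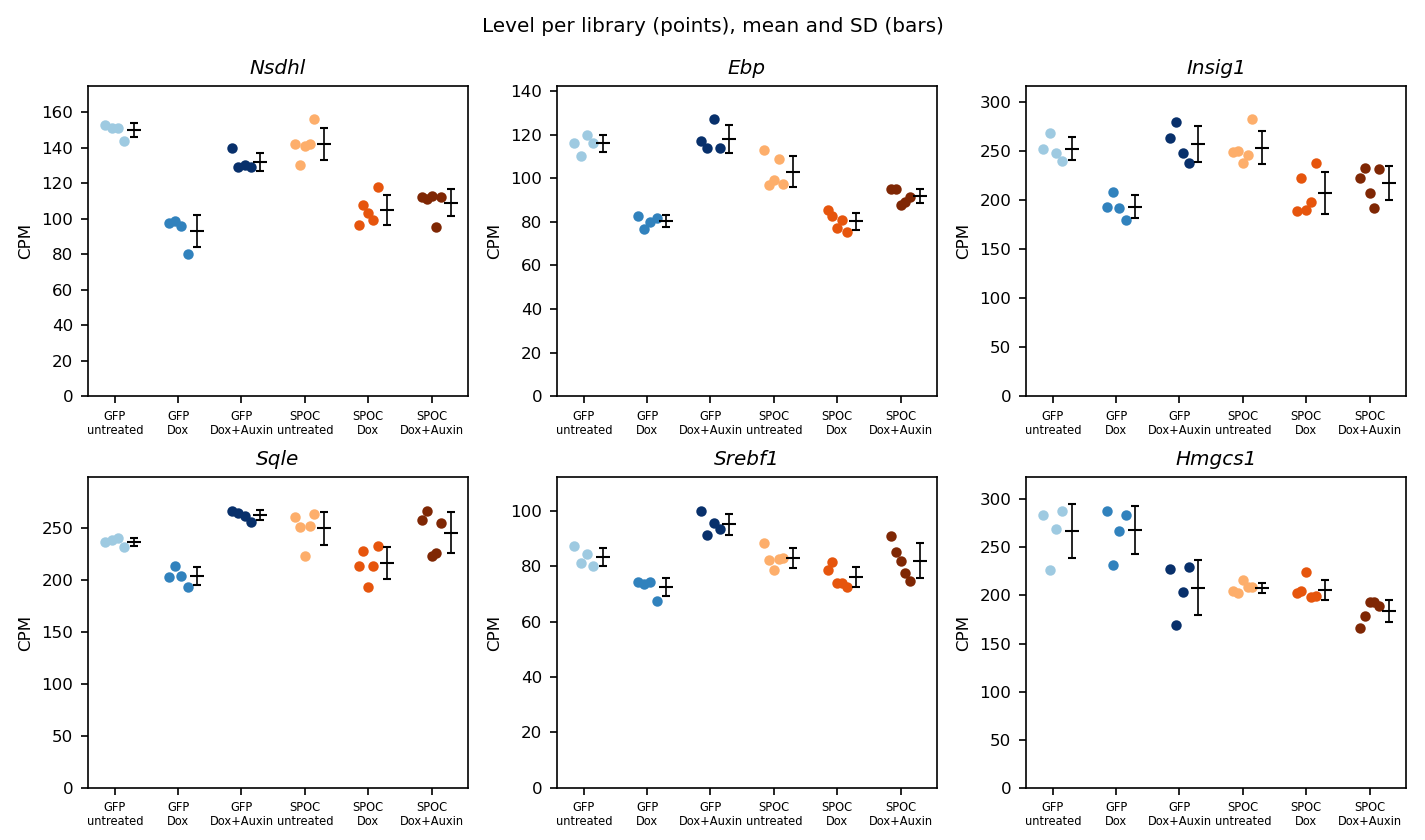
CPM per library (points) with mean and SD (bars) for 6 genes in the 6 groups; each vertical axis starts at 0. Nsdhl, Ebp, Insig1, Sqle and Srebf1 sit lower with Dox than untreated in the GFP line, whereas Hmgcs1 is level with Dox and lower in the SPOC line.

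In the SPOC line Dox lowered 12 of the 28 genes, against 7.33% of all genes tested, and raised 1, Npc2, against 6.16%. The median was -0.12 over the 28 genes. Nsdhl went from 142, 130, 141, 142 and 156 CPM untreated to 96.3, 108, 103, 99.2 and 118 (log2 fold change -0.44 ± 0.06, adjusted p = 3.6e-06). Ebp went from 113, 96.9, 99.2, 109 and 97.5 CPM to 85.2, 82.5, 77.3, 80.7 and 75.4 (-0.36 ± 0.04, adjusted p = 2.6e-07). As in the GFP line, the X-linked enzymes separated the groups. Insig1 went from 249, 250, 237, 246 and 282 CPM to 189, 222, 190, 198 and 237 (-0.29 ± 0.06, adjusted p = 0.003), its highest Dox library reaching the lowest untreated one at the precision given. Npc2 rose from 264, 289, 279, 268 and 278 CPM to 295, 309, 313, 305 and 309 (0.15 ± 0.03, adjusted p = 0.0017), with no overlap.

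By role, 6 of the 11 squalene and sterol genes, 3 of the 8 mevalonate and isoprenoid genes, 1 of the 4 sensing genes and 2 of the 5 transport and storage genes were lower in the SPOC line with Dox. Of all genes tested, 7.33% were lower. Sqle was at 261, 251, 223, 252 and 264 CPM untreated and 214, 228, 194, 214 and 233 with Dox, overlapping in part (-0.21 ± 0.05, adjusted p = 0.0041). Hmgcs1 was at 205, 203, 216, 209 and 209 CPM and then 203, 205, 224, 198 and 199, with no change past the spread (-0.02 ± 0.07, adjusted p = 0.92). Srebf1 (88.4, 82.2, 78.5, 82.6 and 83.0 CPM to 78.7, 81.5, 74.0, 73.9 and 72.6; adjusted p = 0.064) and Srebf2 (352, 347, 334, 335 and 375 to 321, 344, 310, 325 and 343; adjusted p = 0.20) overlapped and did not pass. With the replicate number as a block, Srebf1 (-0.12, adjusted p = 0.0038) and Srebf2 (-0.08, 0.023) were lower. So were Cyp51 (-0.12, 0.0036), Fdft1 (-0.11, 0.0017) and Fdps (-0.17, 0.028), while Pmvk was higher (0.15, 0.012). Without the block, Sc5d (-0.25), Dhcr7 (-0.28), Stard4 (-0.34) and Acat2 (-0.13) fell without overlap. Soat1 was at 51.2, 50.3, 41.7, 53.1 and 49.0 CPM and then 34.0, 43.9, 28, 41.7 and 38.5 (-0.40 ± 0.11, adjusted p = 0.019).

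Without SPOC untreated replicate 2, Nsdhl (-0.47) and Ebp (-0.38) fell by slightly more, Lss (-0.22, adjusted p = 0.094) and Mvd (-0.18, 0.080) did not pass, and Pmvk was higher (0.21, 0.0029). Other single libraries also set the count: 7 genes were lower without untreated replicate 5, without Dox replicate 1 or without Dox replicate 3. Acat2 (-0.10, adjusted p = 0.053) and Idi1 (-0.11, 0.13) did not pass without untreated replicate 5, nor Dhcr7 (-0.25, 0.067) and Soat1 (-0.31, 0.056) without Dox replicate 3.

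The response to Dox was not shown to differ between the lines for any of the 28 genes. The line by Dox interaction, the SPOC change minus the GFP change, called 0 of the 28 genes in edgeR, against 0.229% of all genes tested on the positive side and 0.0109% on the negative side. DESeq2 also called 0, and 3 genes were positive at an unadjusted p under 0.05: Nsdhl (0.25, 95% interval 0.08 to 0.41, adjusted p = 0.40), Ebp (0.16, 0.04 to 0.29, 0.46) and Cyp51 (0.16, 0.01 to 0.31, 0.60). Without SPOC untreated replicate 2, Nsdhl was at 0.22 and Ebp at 0.15, and neither passed. Over 731 X-linked genes (Xist and Tsix left out) the median of this interaction was 0.23, with 40 positive and 0 negative calls. Nsdhl had 55.1% of these X-linked genes below it and Ebp 37.1%.

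**Figure D3:**
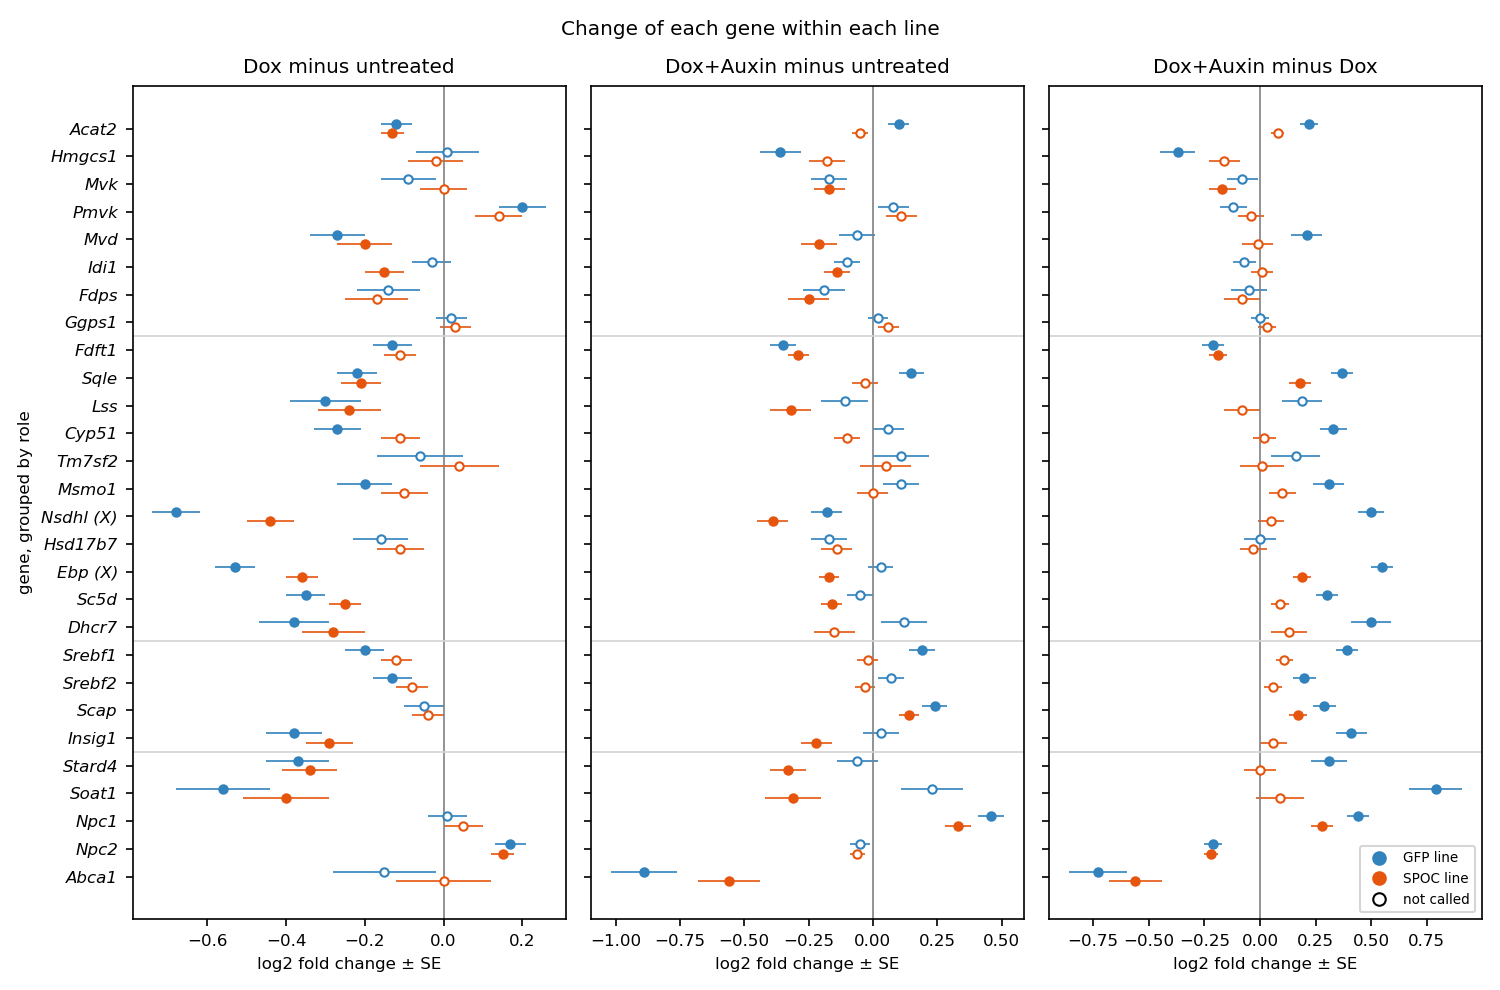
Log2 fold change ± SE of each of the 28 genes in the GFP line (blue) and the SPOC line (orange), for 3 comparisons within each line; open points did not pass an adjusted p of 0.05. With Dox+Auxin against Dox, 16 blue points are called on the higher side and 4 orange ones.

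The X-linked pair was set beside the 731 X-linked genes tested, which include the pair and leave out Xist and Tsix, and the 26 autosomal pathway genes. With Dox in the GFP line, 536 of these X-linked genes were lower and 2 higher, with a median log2 fold change of -0.64. Nsdhl at -0.68 had 45.1% of X-linked genes below it and Ebp at -0.53 had 62.5%, so both fold changes were near the middle of those of X-linked genes. The autosomal pathway median was -0.15, no autosomal pathway gene was below Nsdhl, and Soat1 alone was below Ebp. In the SPOC line the X-linked median was -0.39, with 43.9% of X-linked genes below Nsdhl and 54.0% below Ebp, and the autosomal pathway median was -0.11. Per library, Nsdhl was 0.60 to 0.90 below its untreated mean in GFP Dox libraries, Ebp 0.48 to 0.59, and the autosomal pathway median 0.10 to 0.30. The corresponding values in SPOC Dox libraries were 0.27 to 0.56, 0.27 to 0.45 and 0.05 to 0.17. The autosomal pathway median was thus less low than either X-linked enzyme in each of these 9 libraries, while single autosomal genes such as Soat1 were lower than one or both enzymes in some of them. SPOC untreated replicate 2 had an X-linked median of -0.20 against 0.04 to 0.07 in the other 4 untreated SPOC libraries, with Nsdhl at -0.13 and an autosomal pathway median of 0.01.

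**Figure D4:**
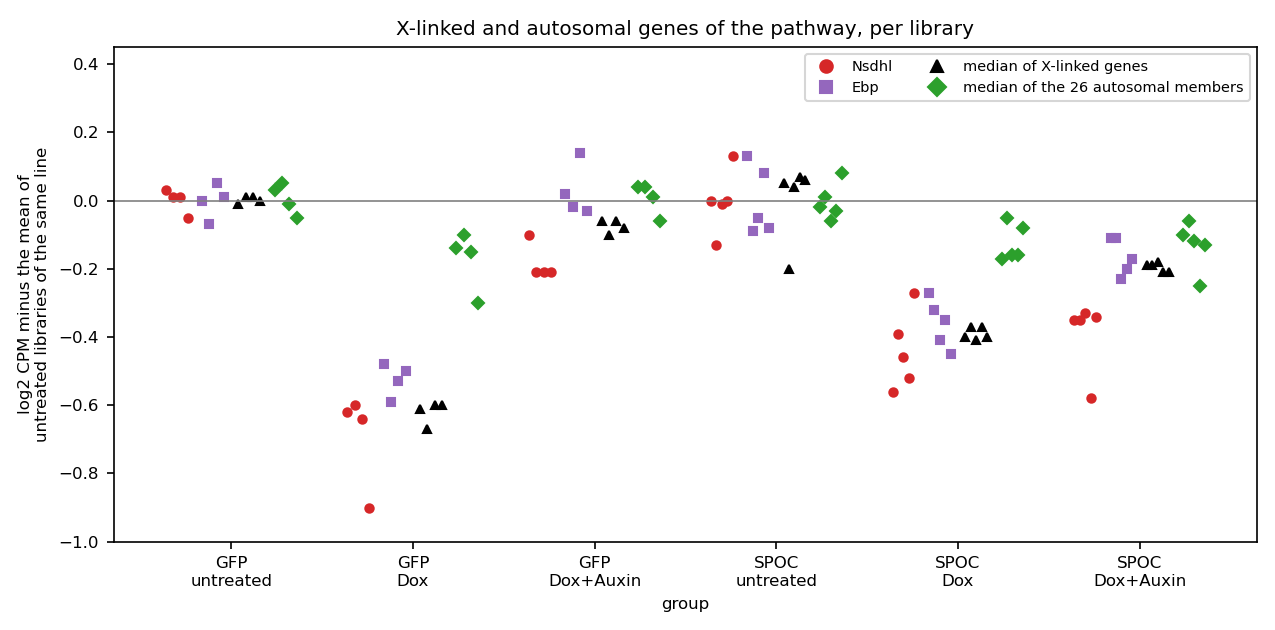
Log2 CPM per library minus the mean of untreated libraries of the same line, for Nsdhl, Ebp, the median of X-linked genes and the median of the 26 autosomal pathway genes. With Dox the GFP points of Nsdhl lie between -0.90 and -0.60 and the autosomal medians between -0.30 and -0.10.

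With auxin added to deplete SPEN, most of the genes that were low with Dox in the GFP line stood higher again. Against Dox alone, Dox+Auxin raised 16 of the 28 genes, against 24.7% of all genes tested, and lowered 4, against 22.9%. The median was 0.21. This comparison shares its Dox libraries with the one above, so a low Dox library enters both with opposite sign. All 4 sensing genes were higher, as were 7 of the 11 squalene and sterol genes, 2 of the 8 mevalonate and isoprenoid genes and 3 of the 5 transport and storage genes. Ebp was at 117, 114, 127 and 114 CPM with Dox+Auxin (log2 fold change 0.55 ± 0.05, adjusted p = 4.5e-11) and Nsdhl at 140, 129, 130 and 129 (0.50 ± 0.06, adjusted p = 3.0e-07). Every one of these was above every Dox library. Insig1 reached 263, 279, 248 and 237 CPM (0.41 ± 0.07, adjusted p = 3.9e-05) and Sqle 267, 265, 262 and 256 (0.37 ± 0.05, adjusted p = 2.8e-06), also without overlap. Srebf1 was at 100, 91.4, 95.5 and 93.4 CPM (0.39 ± 0.05, adjusted p = 1.1e-07) and Srebf2 at 403, 392, 353 and 383 (0.20 ± 0.05, adjusted p = 7.6e-04), the latter overlapping Dox in part. Mvd did not pass without Dox replicate 4 (0.17, adjusted p = 0.072).

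The largest rise in the same comparison was that of Soat1, at 64.0, 65.7, 58.6 and 53.8 CPM (0.79 ± 0.12, adjusted p = 1.5e-05). Scap, the SREBP escort, rose to 80.9, 76.3, 77.9 and 80.9 CPM from 67.0, 61.7, 65.5 and 64.4 with Dox (0.29 ± 0.05, adjusted p = 1.3e-05). Both separated the groups. The 4 genes that fell were Abca1, which exports cholesterol from the cell, Hmgcs1, Fdft1 (squalene synthase) and Npc2. Abca1 went from 52.6, 49.4, 50.1 and 50.6 CPM with Dox to 30.1, 24.6, 27 and 40.2 (-0.73 ± 0.13, adjusted p = 7.4e-05). Hmgcs1 went to 228, 169, 204 and 230 CPM (-0.37 ± 0.08, adjusted p = 7.8e-04). Neither overlapped Dox libraries, so HMG-CoA synthase and the exporter fell while 7 enzymes of the sterol steps rose.

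Against untreated cells, GFP Dox+Auxin cells had 5 genes higher, against 19.9% of all genes tested, and 4 lower, against 18.4%, with a median of 0.02; shares of this size are near those of all genes. The higher genes were Npc1, Scap, Srebf1, Sqle and Acat2. Npc1, the lysosomal membrane transporter that hands on cholesterol, went from 51.9, 50.7, 48.4 and 50.4 CPM to 68.9, 70.9, 62.9 and 73.5 (0.46 ± 0.05, adjusted p = 6.2e-08). Scap went from 67.1, 62.3, 69.5 and 68.2 CPM untreated (0.24 ± 0.05, adjusted p = 2.0e-04), and neither gene overlapped. Abca1, at 55.9, 51.5, 54.5 and 63.8 CPM untreated, was lower (-0.89 ± 0.13, adjusted p = 1.0e-05), as were Hmgcs1 (-0.36) and Fdft1. Fdft1 went from 191, 197, 196 and 186 CPM to 153, 152, 155 and 146 (-0.35 ± 0.05, adjusted p = 6.9e-07). Ctsb shares 774 of the 4227 exonic bases of Fdft1, and in these the genes cannot be told apart without a strand setting. In GFP cells Ctsb was at 0.16 with Dox and -0.2 with Dox+Auxin against Dox, and Fdft1 was lower in both comparisons. Nsdhl remained lower (-0.18 ± 0.06, adjusted p = 0.025) and Ebp did not pass (0.03 ± 0.05, adjusted p = 0.67), with 36.9% and 63.2% of X-linked genes below them and an X-linked median of -0.07. Nsdhl did not pass without Dox+Auxin replicate 2 (-0.17, adjusted p = 0.062), Sqle without untreated replicate 4 (0.14, 0.078) or Acat2 without Dox+Auxin replicate 2 (0.09, 0.11), and each was lost without 5 further libraries taken in turn. Same-numbered libraries of these 2 groups varied together, and with the replicate number as a block 7 genes were higher and 8 lower, Msmo1 and Soat1 adding to the first and Mvk, Idi1, Fdps and Hsd17b7 to the second.

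In the SPOC line auxin left Nsdhl near its Dox level and raised Ebp in part. Against Dox alone, Dox+Auxin raised 4 of the 28 genes, against 16.6% of all genes tested, and lowered 4, against 15.4%, with a median of 0.02. Shares of this size are near those of all genes. Ebp rose to 95.2, 95.1, 87.8, 89.3 and 91.5 CPM (log2 fold change 0.19 ± 0.04, adjusted p = 6.3e-04), above all SPOC Dox libraries. Nsdhl was at 112, 111, 113, 95.1 and 112 CPM and overlapped Dox (0.05 ± 0.06, adjusted p = 0.56). Insig1 was at 222, 232, 207, 192 and 231 CPM (0.06 ± 0.06, adjusted p = 0.48), also inside the Dox range. Hmgcs1 was at 166, 179, 193, 193 and 189 CPM, below every SPOC Dox and every SPOC untreated library, but passed against neither. With the replicate number as a block, Hmgcs1 was lower than Dox (-0.16, adjusted p = 3.8e-05) and than untreated (-0.18, adjusted p = 7.6e-06). Sqle rose to 258, 267, 223, 226 and 255 CPM (0.18 ± 0.05, adjusted p = 0.0049), while Srebf1 at 90.8, 85.3, 81.9, 77.4 and 74.5 (adjusted p = 0.066) and Srebf2 at 360, 355, 327, 326 and 344 (adjusted p = 0.32) did not pass. With the block Srebf1 (0.11, adjusted p = 0.0069), Acat2 (0.08, 0.0086), Msmo1 (0.10, 0.041) and Dhcr7 (0.13, 0.042) were also higher. Dox+Auxin replicate 4 was low for many genes, with an autosomal pathway median of -0.25 against -0.06 to -0.13 in the other 4. Without it 8 genes were higher, and Mvk, called lower with all libraries, did not pass (-0.12, adjusted p = 0.15).

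Of the 5 transport and storage genes 1 rose and 2 fell with auxin in the SPOC line, against 16.6% and 15.4% of all genes tested. Soat1 (0.09) and Stard4 did not pass. Npc1 went from 53.7, 55.4, 50.9, 55.5 and 50 CPM with Dox to 70.4, 69.4, 59.0, 63.3 and 60.2 (0.28 ± 0.05, adjusted p = 4.2e-05). Abca1 went from 50.6, 47.9, 58.2, 50.1 and 40.8 CPM to 31.1, 29.1, 39.6, 40.2 and 28 (-0.56 ± 0.12, adjusted p = 7.9e-04). Npc2 fell to 257, 263, 283, 246 and 268 CPM (-0.22 ± 0.03, adjusted p = 7.2e-06), and none of the 3 overlapped. Scap was higher at 72.9, 67.4, 72.7, 72.1 and 66.6 CPM against 63.0, 62.6, 68.1, 64.2 and 54.1 with Dox (0.17 ± 0.04, adjusted p = 0.0031). Fdft1 was lower at 148, 150, 152, 136 and 162 CPM against 163, 170, 167, 160 and 191 (-0.19 ± 0.04, adjusted p = 9.4e-04), with a small overlap.

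**Figure D5:**
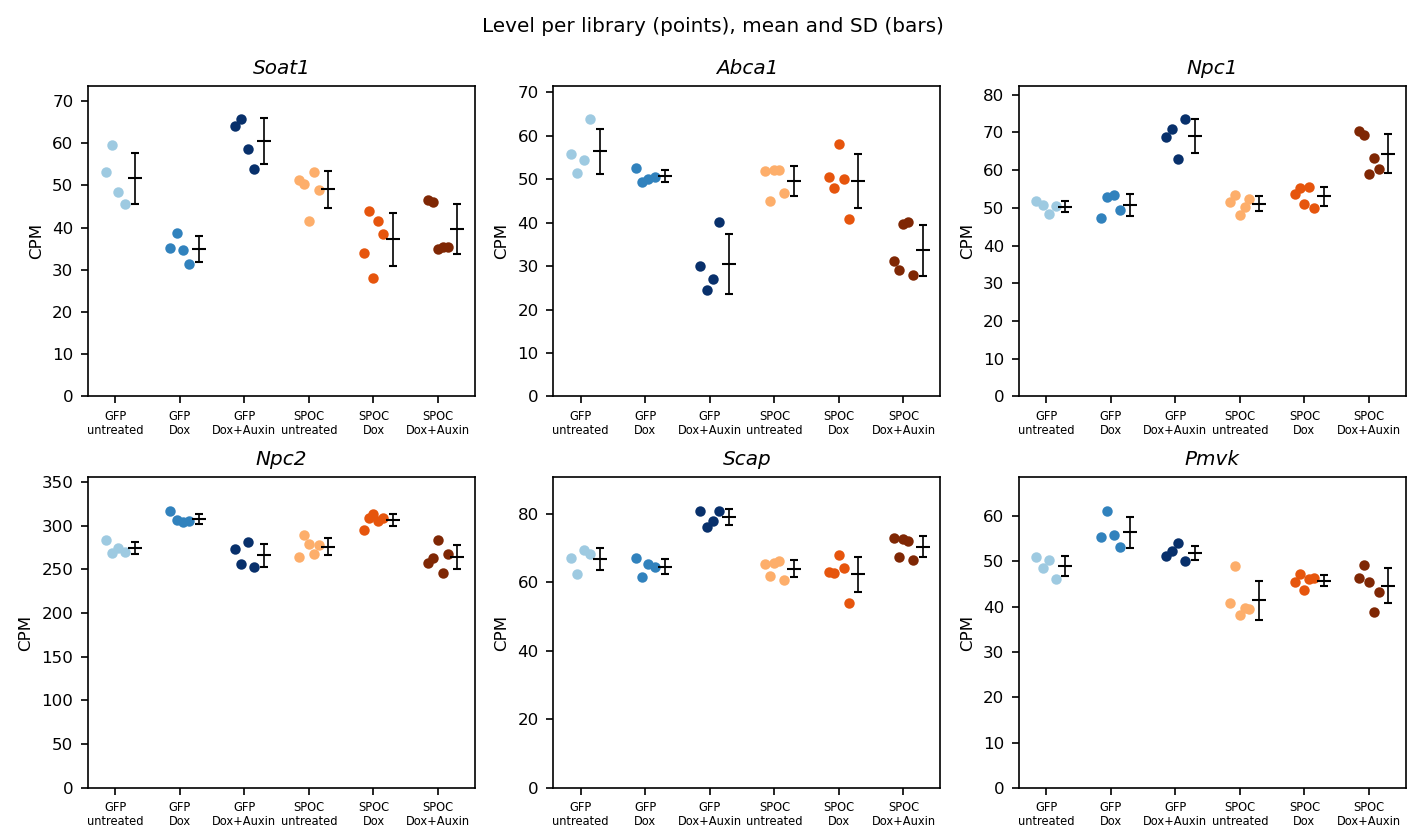
CPM per library (points) with mean and SD (bars) for Soat1, Abca1, Npc1, Npc2, Scap and Pmvk in the 6 groups; each vertical axis starts at 0. Abca1 is low and Npc1 high in the Dox+Auxin groups of both lines, and Soat1 reaches 65.7 CPM with Dox+Auxin in a GFP library and at most 46.5 in SPOC libraries.

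Against untreated SPOC cells, Dox+Auxin left 13 genes lower, against 16.6% of all genes tested, and 2 higher, against 16.7%, with a median of -0.15. Nsdhl stayed lower (-0.39 ± 0.06, adjusted p = 6.9e-06), as did Ebp (-0.17 ± 0.04, adjusted p = 0.0025), with an X-linked median of -0.21 and 32.6% and 54.3% of X-linked genes below them. Insig1 (-0.22), Lss (-0.32), Stard4 (-0.33), Fdft1 (-0.29) and Abca1 (-0.56) were lower without overlap. Abca1 had been at 51.8, 44.9, 52.1, 52.1 and 46.9 CPM untreated. Npc1, at 51.5, 53.4, 48.1, 50.3 and 52.4 CPM untreated, was higher (0.33 ± 0.05, adjusted p = 3.2e-06), and so was Scap, at 65.4, 61.9, 65.7, 66.3 and 60.6 untreated (0.14 ± 0.04, adjusted p = 0.017). Both separated the groups. Without SPOC untreated replicate 2, Nsdhl was at -0.41 and Ebp at -0.18, both still called. Soat1 (-0.29, adjusted p = 0.070) and Mvk (-0.16, 0.066) then did not pass and Pmvk was higher (0.18, 0.0062). Without untreated replicate 5, Idi1 (-0.10, adjusted p = 0.080) and Scap (0.12, 0.051) did not pass. With the replicate number as a block, Cyp51 (-0.10, adjusted p = 0.0078), Hsd17b7 (-0.14, 0.0094), Dhcr7 (-0.15, 0.017) and Npc2 (-0.06, 0.034) were also lower. Pmvk was then higher (0.11, 0.043).

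The effect of auxin under Dox differed between the lines for part of the pathway. The line by auxin interaction, the SPOC change from Dox to Dox+Auxin minus the GFP change, was negative for 7 of the 28 genes, against 4.65% of all genes tested, and positive for 0, against 3.49%. The 7 genes were Nsdhl (-0.45 ± 0.09, adjusted p = 0.0016), Ebp (-0.36 ± 0.06, 5.5e-04), Cyp51 (-0.31 ± 0.08, 0.0092), Sc5d (-0.21 ± 0.07, 0.047), Insig1 (-0.34 ± 0.10, 0.027), Srebf1 (-0.29 ± 0.07, 0.0071) and Soat1 (-0.69 ± 0.17, 0.013). They comprise 4 sterol-step enzymes, 2 sensing genes and the esterifying enzyme, and none of the mevalonate and isoprenoid genes. DESeq2 gave 8 negative and 0 positive, and at an unadjusted p under 0.05 edgeR gave 16 negative and 0 positive. With the replicate number as a block, the mevalonate genes Acat2 (-0.14, adjusted p = 0.0059) and Mvd (-0.23, 0.0024) were also negative. Hmgcs1 was then positive (0.21, 6.8e-04), and Dhcr7, Lss, Sqle, Msmo1, Srebf2 and Stard4 were negative. The Dox and Dox+Auxin groups of neither line met the pairing criterion. Insig1 did not pass without GFP Dox replicate 4 (-0.31, adjusted p = 0.067), nor without 3 other libraries taken in turn, and Sc5d did not pass without GFP Dox+Auxin replicate 2 (-0.19, 0.10), nor without 11 others. The X-linked median of this interaction was -0.35, and the autosomal pathway median was -0.14. Set against untreated cells, the line by Dox+Auxin interaction called 0 of the 28 in either direction in edgeR, against 1.2% of all genes tested on each side. At an unadjusted p under 0.05 it gave 10 negative and 0 positive genes, and DESeq2 called 1 negative, Soat1 being the largest in edgeR (-0.53, adjusted p = 0.087). Without SPOC Dox+Auxin replicate 1 edgeR called 2 negative genes, and without SPOC Dox replicate 3 it called 1. Without SPOC untreated replicate 2, Ebp was at -0.21 (adjusted p = 0.052) and Soat1 at -0.52 (0.10), and neither passed. With the replicate number as a block, 9 genes were negative, among them Insig1 (-0.25, adjusted p = 7.6e-04), Soat1 (-0.54, 0.0038) and Ebp (-0.19, 0.0069), and Hmgcs1 was positive (0.19, 0.0046); libraries met the pairing criterion for the GFP groups of this interaction and not for the SPOC groups.

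Measured directly between lines, few of the genes differed before auxin and more did with it. Untreated SPOC cells had 3 genes lower than untreated GFP cells, against 5.77% of all genes tested, and 0 higher, against 5.79%; DESeq2 also gave 0 higher, and 0 were higher at an unadjusted p under 0.05. The 3 were Hmgcs1 (-0.36 ± 0.08, adjusted p = 0.0058), the only one without overlap, Pmvk (-0.24) and Ebp (-0.17). Without SPOC untreated replicate 2 their values were -0.35, -0.31 and -0.15. With Dox, Hmgcs1 (-0.38) and Pmvk (-0.30) were lower, 2 genes against 5.33% of all genes, and Cyp51 was higher, 1 gene against 5.36%. Cyp51 was at 160, 168, 164 and 150 CPM in GFP Dox libraries and 175, 196, 173, 183 and 209 in SPOC Dox libraries (0.22 ± 0.05, adjusted p = 0.007), and SPOC Dox values of Pmvk were 45.4, 47.2, 43.8, 46.2 and 46.4 CPM. Neither overlapped, and 2 genes were higher without SPOC Dox replicate 1 or without SPOC Dox+Auxin replicate 4.

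With Dox+Auxin 14 of the 28 genes were lower in the SPOC line, against 13.5% of all genes tested, and 0 were higher, against 11.2%; DESeq2 and an unadjusted p under 0.05 also gave 0 higher. All 4 sensing genes, 5 of the 11 squalene and sterol genes, 3 of the 8 mevalonate and isoprenoid genes and 2 of the 5 transport and storage genes were lower, with a median of -0.17 over the 28. Soat1, at 46.5, 46.0, 34.9, 35.4 and 35.5 CPM in the SPOC line, differed most (-0.61 ± 0.12, adjusted p = 5.5e-04). Lss, which closes squalene into lanosterol, was at 97.8, 97.2, 86.1 and 84.8 CPM in GFP libraries and 75.5, 78.8, 67.9, 57.6 and 72.6 in SPOC libraries (-0.38 ± 0.08, adjusted p = 0.002). Ebp (-0.36) and Nsdhl (-0.28) were also lower, and none of these 4 overlapped. Stard4 did not pass without GFP Dox+Auxin replicate 1 (-0.23, adjusted p = 0.063).

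Other measures moved with auxin beside these genes, and their part in the results was not tested. In GFP cells 24.7% of all genes tested were higher and 22.9% lower with Dox+Auxin against Dox. In SPOC cells 16.6% were higher and 15.4% lower, so single marker calls are not read as a change of cell state. Formative and primed markers (6 genes, none at 0) summed to 443 to 450 CPM in untreated GFP cells, 430 to 450 with Dox and 245 to 266 with Dox+Auxin, and to 339 to 389, 318 to 337 and 202 to 240 in the SPOC line. Against Dox, Dnmt3b and Lef1 were lower and Otx2 and T higher in GFP cells, and 3 were lower and 0 higher in SPOC cells. Trophoblast markers (7 genes, none at 0) summed to 173 to 181 CPM in GFP Dox+Auxin cells against 87.5 to 91.1 with Dox, and to 113 to 181 against 84.5 to 129 in the SPOC line. Of the 6 tested, Cdx2 and Tfap2c were higher in both lines, Gata3 was lower in SPOC cells, and the median log2 fold changes were 0.04 and -0.21. Two-cell-like markers (7 genes, none at 0) summed to 6.87 to 8.30 CPM in GFP Dox+Auxin cells against 21.2 to 29.5 with Dox, and to 4.56 to 5.75 against 11.1 to 20.1. Naive markers summed to 5629 to 5921 CPM in GFP Dox+Auxin cells against 6270 to 6546 with Dox (6 of 9 lower, 1 higher), and to 5908 to 6425 against 6258 to 6722 in SPOC cells (4 lower, 1 higher). Feeder markers summed to 25 to 27.4 CPM against 34.2 to 36.8 (3 of 3 tested lower), and to 23.4 to 29.9 against 30.1 to 35.6 (1 lower). Xist was lower in every GFP Dox+Auxin library (382 to 630 CPM) than in any GFP Dox library (747 to 918), though this did not pass the test (-0.75 ± 0.78). The test takes its spread from all 27 libraries, so it does not measure that of the GFP libraries alone. SPOC untreated replicate 2 had Xist at 178 CPM against 1.03 to 1.69 in the other untreated SPOC libraries.

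Neighbouring pathway genes, listed by function, were read beside the 28. Of all genes, 10.8% were lower and 10.1% higher with Dox in GFP cells and 7.33% and 6.16% in SPOC cells. With Dox+Auxin against Dox 24.7% were higher and 22.9% lower in GFP cells and 16.6% and 15.4% in SPOC cells, and against untreated 18.4% and 16.6% were lower in GFP and SPOC cells. Lists this short can hold a call or more at these shares, so single calls are not read as a result about a list. Of 11 fatty acid synthesis genes driven by SREBP, 5 were lower and 1 higher with Dox in the GFP line, led by Fads2 (-0.37), Scd2 (-0.32) and Fasn (-0.24), and 3 were lower and 1 higher in the SPOC line. Against untreated, 7 were lower and 1 higher with Dox+Auxin in the GFP line, with Me1 (-0.38) and Fasn (-0.30) lower and Acss2 (0.36) higher, and 6 were lower and 1 higher in the SPOC line. Of 9 genes of SREBP processing and sterol-regulated degradation, 2 were higher and 2 lower with Dox in the GFP line, and 5 higher and 0 lower with Dox+Auxin against Dox in each line.

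Of 8 other sterol enzymes and partners tested, 4 were lower, against 10.8% of all genes, and 0 higher, against 10.1%, with Dox in the GFP line. Cyp46a1 (-1.03) led these falls, and 2 were lower in the SPOC line, against 7.33%. Of 11 genes of sterol uptake, transfer and ester handling only Lipa, the lysosomal acid lipase, was called with Dox (-0.47 and -0.22). With Dox+Auxin against Dox 4 were higher in GFP cells, against 24.7% of all genes, and 1 in SPOC cells, against 16.6%. Of 5 liver X receptor genes and targets, 1 was lower with Dox in GFP cells and 0 in SPOC cells, against 10.8% and 7.33% of all genes. Of 10 genes that use isoprenoids, 1 was higher with Dox in GFP cells and 0 in SPOC cells, against 10.1% and 6.16% of all genes. With Dox+Auxin against Dox, Coq2 was higher in both lines (0.69 and 0.49). In that comparison 3 were lower in GFP cells and 2 in SPOC cells, against 22.9% and 15.4% of all genes.

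A further pair of X-linked genes acts beside the pathway. Mbtps2, the membrane protease that releases SREBP, was lower with Dox (GFP -0.37 ± 0.04, SPOC -0.22 ± 0.04) and higher with Dox+Auxin against Dox (0.54 ± 0.04 and 0.11 ± 0.04). Pgrmc1, a heme-binding partner of sterol cytochromes, was lower with Dox (-0.49 ± 0.04 and -0.29 ± 0.03) and higher with Dox+Auxin against Dox (0.98 ± 0.04 and 0.53 ± 0.03). Both had a negative line by auxin interaction (-0.42 ± 0.06, adjusted p = 1.7e-05, and -0.45 ± 0.05, adjusted p = 3.9e-06). Both were above untreated in GFP Dox+Auxin cells, by 0.16 for Mbtps2 and 0.48 for Pgrmc1 on the log2 scale.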

How the data were processed

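RNA-seq counts per gene in 27 libraries were analysed. The submitters' processing notes name mm10, DESeq2 1.18.1, featureCounts, Trim Galore 0.4.4, Picard 2.18.2 and STAR 2.5.3a, without their roles. The deposited RPKM columns equal the count divided by kilobases and a DESeq2 size factor, so they were used only to order genes by level. Allele-specific columns were not used, because in all 27 libraries their sums fitted the total of another library better than that of the same name.

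Groups came from the labels, and the 6 groups were fitted together in edgeR 4.0.16 (R 4.3.3; quasi-likelihood test, TMM factors 0.980 to 1.020, filterByExpr filter) on the deposited counts, with Benjamini-Hochberg adjustment over all 18363 genes tested. A gene was called at an adjusted p under 0.05 in each of 12 comparisons. The p-values in the text are edgeR's unless DESeq2 1.42.0 is named. For the log2 CPM centred on untreated libraries, a prior count of 2 was added to the counts before the logarithm. The 95% intervals are normal. The fit was tested on simulated data. Gene members and lists were chosen with earlier results of these data known. All 28 genes are named, with values per library for 7 fixed genes and for the 2 largest rises and 2 largest falls per comparison among called genes that did not overlap. From each neighbouring list at most 3 called genes are named.

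The pairing criterion, every same-numbered correlation over 0.1, was met only for untreated and Dox+Auxin in the GFP line (0.10 to 0.21). In the SPOC line all 5 untreated libraries correlated best with their own number among Dox and among Dox+Auxin libraries (highest 0.32 and 0.24). For SPOC Dox and Dox+Auxin 4 of 5 did (highest 0.46), so pairing in the SPOC line is not excluded. Counts and p-values are from the fit without the block unless the block is named. Alternatives were another normalization, no filter, DESeq2, the replicate block, only the groups compared, and leaving out each library.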

Additional observations from a re-analysis of the deposited data

Results flagged for a closer look

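Of 180 gene and group combinations checked for 1 library far from the rest of its group, 13 met the criterion, where chance gives about 1 in 20. The high libraries were SPOC Dox replicate 3 for Hmgcs1 (224 CPM), SPOC untreated replicate 2 for Pmvk (49.0 CPM) and Xist (178 CPM), SPOC Dox replicate 5 for Idi1 (61.0 CPM), GFP Dox+Auxin replicate 1 for Nsdhl (140 CPM), GFP untreated replicate 2 for Hsd17b7 (25.2 CPM), SPOC untreated replicate 5 for Insig1 (282 CPM) and GFP Dox replicate 1 for Npc2 (317 CPM). The low ones were GFP Dox+Auxin replicate 4 for Mvk (29 CPM), SPOC Dox+Auxin replicate 4 for Msmo1 (107 CPM) and Nsdhl (95.1 CPM), and GFP Dox replicate 4 for Nsdhl (79.9 CPM) and Srebf1 (67.5 CPM).

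The line by auxin interaction was negative in 7 of the 28 genes, against 4.65% of all genes tested. The SPOC change from Dox to Dox+Auxin was below the GFP change for Soat1 (-0.69), Nsdhl (-0.45), Ebp (-0.36), Insig1 (-0.34), Cyp51 (-0.31), Srebf1 (-0.29) and Sc5d (-0.21), all on the log2 scale. Insig1 and Sc5d each lost the call when some single libraries were left out.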

How the results depend on the processing

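No member's called change reversed under any alternative. Of 110 called changes 85 kept their call under every alternative, 24 lost it without 1 library, and none of 168 group levels moved by 1 SD. Without the filter 3 genes were higher in GFP Dox+Auxin against untreated, and DESeq2 gave 1 negative gene in the line by Dox+Auxin interaction. With the replicate block 8 genes were lower in GFP Dox+Auxin against untreated, 2 were higher in SPOC Dox against untreated and 8 higher in SPOC Dox+Auxin against Dox; the line by Dox+Auxin interaction then had 1 positive and 9 negative genes, and the line by auxin interaction 1 and 15. The labels give replicate numbers but do not say that a number pairs libraries, and comparisons between lines could not be fitted with the block. Leaving out 1 library at a time gave 1 to 2 higher genes for GFP Dox against untreated, 3 to 5 for GFP Dox+Auxin against untreated, 1 to 2 higher and 7 to 14 lower for SPOC Dox against untreated, 1 to 3 higher for SPOC Dox+Auxin against untreated, 4 to 8 for SPOC Dox+Auxin against Dox, 1 to 2 for SPOC against GFP with Dox, and 0 to 2 negative genes for the line by Dox+Auxin interaction. Every library held 28936459 or more counts.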
